A study of Mus musculus with 6 samples.

Results

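The 31 skeletal muscle lineage genes examined here were a fixed list of myogenic factors and sarcomere genes, read from Affymetrix arrays of mouse fibroblasts. A member was taken where a probe set was annotated to its symbol alone, and of several such probe sets the one brightest on average stood for the gene. All 31 listed genes were found among the 18193 genes measured. The samples were 3 cultures with the Lmna Delta9 allele, Lmna being the lamin A/C gene, and 3 wild-type (WT) cultures from siblings, all primary fibroblasts of strain C57bl6X129S3/J. Both groups were at passage 3 and had spent 72 hours without serum. Whether the Delta9 cells carried the allele on one or both chromosomes, and how many animals the cultures came from, is not stated in the labels, so every p-value rests on how these 6 samples vary, which may be technical in part. The donors are adult in the sample labels but post-natal in the series design.

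Skeletal muscle arises from precursors marked by the paired-box factors Pax3 and Pax7. The basic helix-loop-helix factors Myf5 and MyoD commit these cells to the lineage, and myogenin, MRF4 (Myf6) and the MADS-box factor MEF2C then drive their exit from the cell cycle and fusion into myotubes. Myotubes assemble sarcomeres from myosin thick filaments, actin thin filaments with troponins, and the giant proteins titin and nebulin; embryonic and perinatal myosins come before the adult isoforms. Mutations in LMNA cause several muscle diseases in humans, which is why this lineage is often examined in lamin mutants.

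Values are on a log2 scale as deposited, so 1 unit is a doubling, and the table gives no detection calls. Fibroblast markers were bright: all 10, among them Col1a1, Col1a2 and Pdgfra, had means of 7.54 to 13.14, above the median gene at 4.79. Of 15 macrophage markers, with means of 4.17 to 12.22, 14 were above the median gene too. These levels therefore do not give the share of each cell type in the cultures. Lmna, read by its brightest probe set, was 7.07, 6.95 and 6.11 in Delta9 replicates 1, 2 and 3, against 8.35, 8.89 and 8.78 in WT, a difference of -1.96 (SE 0.28, adjusted p 0.0899). The position of this probe set relative to the allele's change is not known here, so its level alone does not check the labels. Poly-A spike-in signal was lower on Delta9 replicate 3 and WT replicate 1 (4.87 and 4.55) than on the other 4 arrays (5.25 to 5.67). This split was set at the largest gap, 0.38. It is not sharp, as the next gap, between the 2 lower arrays themselves, was 0.33. Macrophage markers differed widely between samples, and their values are given beside Mef2c.

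No skeletal muscle gene passed the test between Delta9 and WT, and the cultures of each genotype differed widely among themselves. By the limma test, 0 of the 31 had an adjusted p under 0.05, where 0.0605% of all genes did (0.0550% lower and 0.00550% higher in Delta9). Their adjusted p ran upward from 0.315. At an unadjusted p under 0.05 there were 2, Myh2 and Pax7, both lower in Delta9, beside 10.6% of all genes in either direction and 6.06% in that direction (0 of 31 were higher, beside 4.54%). The median difference over the 31 genes was -0.30, Delta9 minus WT, against -0.01 over all genes, with 24 of 31 below 0 beside 53.2% of all genes.

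The spread within groups was wide for these genes. The range over 6 samples reached 1 log2 for 21 of the 31, beside 15.3% of all genes. Within the 3 Delta9 cultures alone it did so for 17 of the 31 (7.20% of all genes), and within the 3 WT cultures for 20 (4.86%). The median within-group SD over the 31 genes was 0.68 in Delta9 and 0.60 in WT, against 0.16 in each group over all genes.

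**Figure D1:**
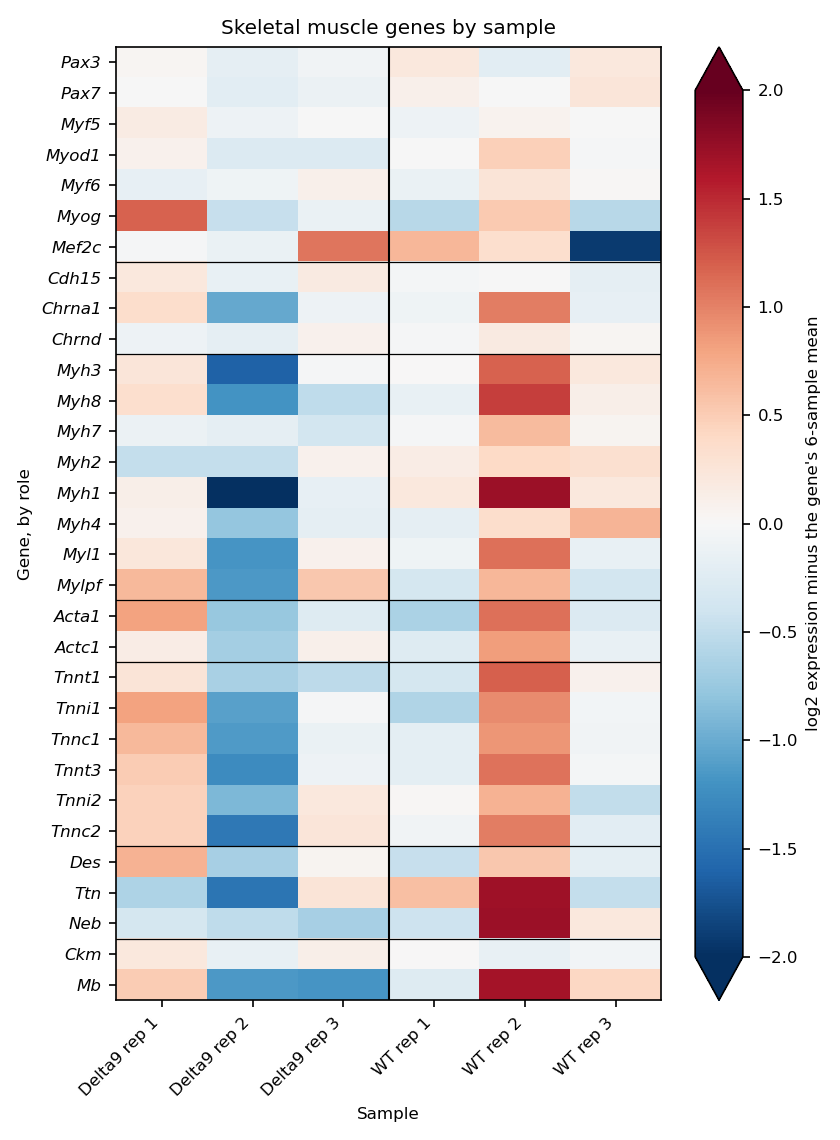
Heat map of the 31 genes (rows, grouped by role) in the 6 samples (columns, Delta9 left of WT); colour is the log2 value minus the gene's 6-sample mean. WT replicate 2 is high and Delta9 replicate 2 low across most of the myosin, actin and troponin rows, while Mef2c follows another order.

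The high and low samples were the same for most sarcomere genes. WT replicate 2 was the highest of the 6 samples for 22 of the 31 genes (12.2% of all genes), and Delta9 replicate 2 was the lowest for 20 (15.7% of all genes). Both held at once for 16 of the 31, beside 2.51% of all genes. Delta9 replicate 1 and WT replicate 2 were the top pair for 18 of 31 genes, beside 4.83% of all genes, so the high samples came from both genotypes. Among the Delta9 cultures alone, replicate 1 was highest for 26 of the 31 (36.0% of all genes) and replicate 2 lowest for 25 (29.9%). Among the WT cultures, replicate 2 was highest for 26 (26.8%). Over the 21 genes with a range of at least 1, Delta9 replicate 1 exceeded Delta9 replicate 2 by a median of 1.52 (2.87-fold), and WT replicate 2 exceeded the mean of the other WT cultures by a median of 1.16 (2.24-fold). These counts were chosen after the values had been seen and describe these 6 cultures. In such bulk samples, fewer muscle-lineage cells and less muscle RNA per cell cannot be told apart.

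The early markers of the lineage, and the later factor Myf6, were dim and showed little of this spread. Whether they were above background is not known. Pax7, the satellite cell factor, was 2.44, 2.25 and 2.33 in Delta9, against 2.56, 2.44 and 2.71 in WT. The groups did not overlap, although the 2 nearest values were 2.44 on each side, and the difference was -0.23 (SE 0.09, unadjusted p 0.0446, adjusted p 0.460). On a second, slightly dimmer Pax7 probe set the groups overlapped. It gave 2.33, 2.47 and 2.24 in Delta9, against 2.16, 2.31 and 2.38 in WT (difference 0.06, SE 0.09). Pax3, Myf5, Myf6 and Myod1 ranged over less than 1 log2 each; Myf5 lay between 2.05 and 2.32 in all samples and had a difference of 0.03 (SE 0.09). Myod1, the master regulator MyoD, was 3.37, 3.01 and 3.00 in Delta9, against 3.27, 3.75 and 3.25 in WT. Its 2 highest samples were again WT replicate 2 and Delta9 replicate 1, within a narrow range of 0.74.

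Myog, which encodes myogenin, the factor of terminal differentiation, spanned 1.75 log2. It was 6.48, 4.83 and 5.15 in Delta9, against 4.73, 5.82 and 4.74 in WT. Delta9 replicate 1 was the highest sample and WT replicate 2 came next, so the groups overlapped (difference 0.39, SE 0.48, 95% interval -0.73 to 1.52). Without Delta9 replicate 1 the difference was -0.10. At the cell surface, Chrna1, the alpha subunit of the muscle acetylcholine receptor, was 6.32, 4.94 and 5.86 in Delta9, against 5.88, 6.99 and 5.80 in WT. It had the lowest value in Delta9 replicate 2 and the highest in WT replicate 2, with a difference of -0.52 (SE 0.44, adjusted p 0.710). Cdh15, the myoblast cadherin M-cadherin, and Chrnd, the receptor's delta subunit, ranged over 0.40 and 0.36 and differed by 0.16 (SE 0.14) and -0.13 (SE 0.13).

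Myosin heavy chains included the widest spread of the list. Myh3, the embryonic chain, was 7.21, 5.35 and 6.94 in Delta9, against 6.98, 8.14 and 7.17 in WT. Delta9 replicate 2 lay 2.80 log2 (6.95-fold) below WT replicate 2, while the other 4 cultures stayed between 6.94 and 7.21 in both genotypes. Myh8, the perinatal chain, was 6.09, 4.58 and 5.26 in Delta9, against 5.62, 7.15 and 5.88 in WT. Their differences were -0.93 (SE 0.53, adjusted p 0.573) and -0.91 (SE 0.50, adjusted p 0.560). The difference of Myh3 was -0.36 without Delta9 replicate 2 and -0.57 without WT replicate 2, and the difference of Myh8 was -0.54 and -0.44 in the same order.

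Myh1, the fast IIx chain, was 6.87, 4.66 and 6.57 in Delta9, against 6.96, 8.46 and 6.96 in WT. Delta9 replicate 2 was 13.9-fold below WT replicate 2, the widest gap among the 31 genes, and the groups did not overlap, although Delta9 replicate 1 lay close under the lower WT cultures. The difference was -1.43 (SE 0.65, 95% interval -2.95 to 0.10, adjusted p 0.493). The difference of Myh1 was -0.74 without Delta9 replicate 2 and -0.93 without WT replicate 2. A second Myh1 probe set gave 6.70, 4.34 and 6.26 in Delta9, against 6.95, 8.35 and 7.19 in WT (difference -1.73, SE 0.63, adjusted p 0.507 over all probe sets). The dimmest stayed between 2.63 and 2.94.

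The other heavy chains were dim. Myh2, the IIa chain, was 2.24, 2.24 and 2.80 in Delta9, against 2.86, 3.12 and 3.04 in WT. All 3 Delta9 values lay under the lowest WT value, and this gene had the lowest p of the list (difference -0.58, SE 0.17, unadjusted p 0.00971, adjusted p 0.315). Its Delta9 replicates 1 and 2 had the identical value of 2.2423, and it had no second probe set to compare. Myh4, the IIb chain, was 3.25, 2.39 and 2.99 in Delta9, against 2.98, 3.51 and 3.85 in WT, and was one of the few members highest in WT replicate 3. Myh7, the slow chain, ran from 3.18 to 3.43 in Delta9 and from 3.53 to 4.17 in WT without overlap (difference -0.44, SE 0.19, adjusted p 0.470). In all, groups did not overlap for 4 of the 31 genes, Pax7, Myh7, Myh2 and Myh1, each lower in Delta9, beside 9.99% of all genes in that direction, and 0 were wholly higher, beside 7.27%. Myh3, Myh2, Myh1, Myh4 and Myh8 lie next to each other on chromosome 11 and are alike in sequence, so cross-hybridisation among their probe sets, above all the set used for Myh1, of a type that can detect several transcripts, was not tested.

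The light chains were again lowest in Delta9 replicate 2 and highest in WT replicate 2. Myl1, the essential light chain of fast fibres, was 9.94, 8.54 and 9.80 in Delta9, against 9.63, 10.82 and 9.57 in WT (difference -0.58, SE 0.46). Mylpf, the fast regulatory light chain, was 10.14, 8.34 and 10.02 in Delta9, against 9.14, 10.15 and 9.12 in WT. Here Delta9 replicates 1 and 3 and WT replicate 2 stood together, above the other WT cultures, and the difference was 0.03 (SE 0.51, 95% interval -1.18 to 1.23).

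**Figure D2:**
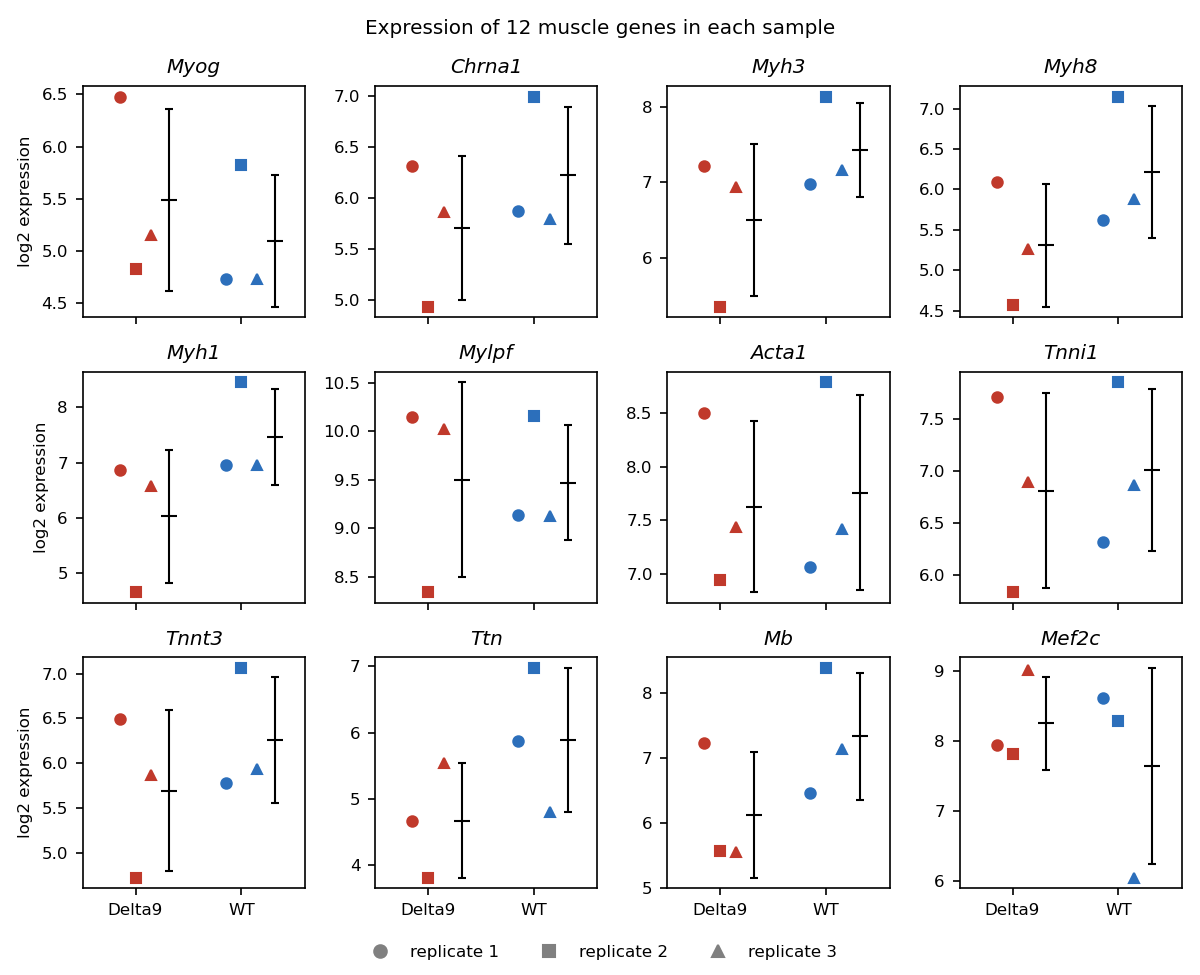
Log2 expression of 12 of the genes in each sample, Delta9 left of WT; symbols mark the replicate, and the black bar is the group mean with its SD (n = 3). Each panel has its own vertical axis. WT replicate 2 is the highest sample in every panel but those of Myog and Mef2c.

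Sarcomeric actins had the same order. Acta1, skeletal alpha-actin, was 8.50, 6.94 and 7.44 in Delta9, against 7.06, 8.79 and 7.42 in WT. The high cultures, Delta9 replicate 1 and WT replicate 2, differed by less than either did from its own group, and the difference was -0.13 (SE 0.54, 95% interval -1.39 to 1.13). Actc1, the cardiac alpha-actin that embryonic skeletal muscle also uses, was 8.30, 7.46 and 8.24 in Delta9, against 7.89, 8.99 and 7.99 in WT (difference -0.29, SE 0.35). Their coding sequences are near copies, so some signal may be shared between them.

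All 6 troponin genes were lowest in Delta9 replicate 2 and highest in WT replicate 2, in slow and fast isoforms alike. Of the slow set, Tnni1, the inhibitory subunit, was 7.71, 5.83 and 6.89 in Delta9, against 6.31, 7.85 and 6.86 in WT. Tnnc1, the calcium-binding subunit of slow and cardiac muscle, was 8.56, 6.77 and 7.77 in Delta9, against 7.71, 8.79 and 7.84 in WT. Tnnt1, the tropomyosin-binding subunit, was 6.68, 5.78 and 5.90 in Delta9, against 6.08, 7.63 and 6.52 in WT. In each of them Delta9 replicate 1 was the second highest sample.

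The fast troponins gave the same picture. Tnnt3 was 6.49, 4.72 and 5.87 in Delta9, against 5.77, 7.07 and 5.93 in WT. Tnnc2 was 8.81, 6.92 and 8.60 in Delta9, against 8.28, 9.38 and 8.15 in WT. Tnni2 was 7.40, 6.04 and 7.14 in Delta9, against 6.96, 7.63 and 6.44 in WT. The median difference was -0.41 over the slow and -0.49 over the fast set, each of 3 genes, and slow and fast sets were not tested against each other. SEs of the 6 single differences ran from 0.42 to 0.54. Tnni2 and Tnnt3 lie on chromosome 7 with 1 other protein-coding gene between them.

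Filament scaffolds and the oxygen carrier departed from the shared order in part. Des, the intermediate filament desmin, was 7.32, 5.96 and 6.68 in Delta9, against 6.16, 7.16 and 6.43 in WT, with Delta9 replicate 1 highest (difference 0.07, SE 0.39). Ttn, titin, was 4.67, 3.81 and 5.54 in Delta9, against 5.88, 6.98 and 4.80 in WT. Neb, nebulin, was 3.26, 3.10 and 2.94 in Delta9, against 3.19, 5.31 and 3.82 in WT. For both giant proteins Delta9 replicate 1, high for the troponins, was not among the top pair.

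The differences of Ttn and Neb were -1.21 (SE 0.61, adjusted p 0.531) and -1.01 (SE 0.48, adjusted p 0.513), and without WT replicate 2 the difference of Ttn was -0.67 and the difference of Neb -0.40. Of the 3 brightest Ttn probe sets, the next after the one used differed by -0.999 (SE 0.38) and the dimmest of them by -0.18 (SE 0.34). Mb, the oxygen store myoglobin, was 7.24, 5.58 and 5.55 in Delta9, against 6.46, 8.39 and 7.14 in WT. Here Delta9 replicate 3 was as low as Delta9 replicate 2, and the difference was -1.21 (SE 0.60, 95% interval -2.63 to 0.21, adjusted p 0.529). Without WT replicate 2 the difference of Mb was -0.68. Ckm, the muscle creatine kinase of mature fibres, stayed between 3.98 and 4.33 in all samples (difference 0.13, SE 0.14).

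**Figure D3:**
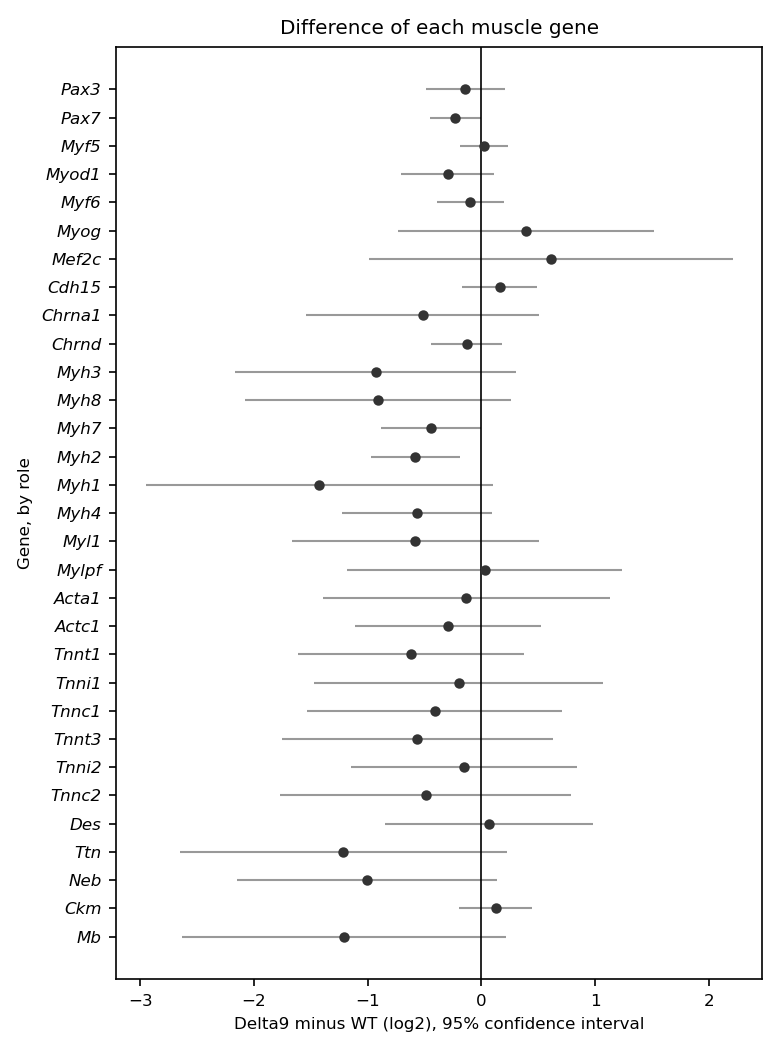
Difference of each of the 31 genes, Delta9 minus WT in log2, with 95% confidence intervals from the limma fit (3 samples per group). The intervals of Pax7 and Myh2 alone exclude 0 before adjustment.

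Mef2c had a sample order of its own. Its brightest probe set was 7.94, 7.81 and 9.02 in Delta9, against 8.62, 8.29 and 6.04 in WT, with a difference of 0.61 (SE 0.68, adjusted p 0.784). WT replicate 3 was the lowest sample on all 5 Mef2c probe sets, while its median deviation over the 31 muscle genes was -0.04. MEF2C is also made by cells of the myeloid lineage. The 15 macrophage markers, all of higher mean in Delta9, were likewise lowest in WT replicate 3: their median deviation from the 6-sample mean was 0.40, 0.37 and 0.97 in Delta9, against 0.32, -0.27 and -1.84 in WT. With this median as a covariate, an alternative chosen after seeing the data, the Mef2c difference was -0.93 (SE 0.23, adjusted p 0.532), and 3 of the 31 had an unadjusted p under 0.05, beside 9.23% of all genes, with 0 of 31 past the adjusted threshold, beside 0.0110%. The covariate was itself higher in every Delta9 sample than in any WT sample, so this fit does not cleanly separate it from genotype. The part of macrophage RNA in the Mef2c signal was not tested.

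**Figure D4:**
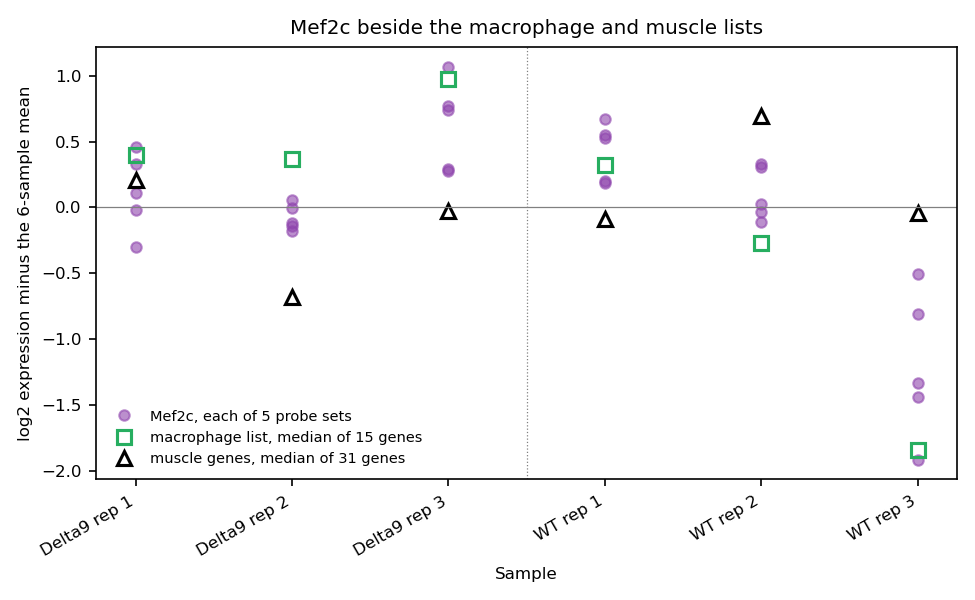
Each sample's deviation from the 6-sample mean (log2) for the 5 Mef2c probe sets (circles), the median of 15 macrophage markers (squares) and the median of the 31 muscle genes (triangles), Delta9 left of WT. WT replicate 3 is lowest for Mef2c and for the macrophage list, at -1.84, but sits at -0.04 for the muscle genes.

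Promoters of 4 members that varied together, chosen from those holding the motif CAGCTG, are printed here to show it in place, beside that of Mef2c, which had another sample order. MyoD and myogenin bind the E-box CANNTG, with CAGCTG as a favoured core, and serum response factor binds the CArG box. Capitals mark every E-box and CArG box; the windows run from 250 bases before to 50 after the annotated start, 5′ to 3′ on the gene's strand, from RefSeq on GRCm38.p6. They are chr2:73580289-73580588 (minus strand) for Chrna1, chr7:127211358-127211657 (plus) for Mylpf, chr8:123894726-123895025 (minus) for Acta1, chr1:135799171-135799470 (plus) for Tnni1 and chr13:83503784-83504083 (plus) for Mef2c.
Chrna1: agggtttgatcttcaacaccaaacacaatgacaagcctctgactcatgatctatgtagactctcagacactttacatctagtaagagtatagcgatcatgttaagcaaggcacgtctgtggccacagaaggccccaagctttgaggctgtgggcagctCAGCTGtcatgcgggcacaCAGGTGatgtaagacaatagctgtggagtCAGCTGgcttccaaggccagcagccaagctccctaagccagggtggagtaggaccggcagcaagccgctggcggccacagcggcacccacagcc
Mylpf: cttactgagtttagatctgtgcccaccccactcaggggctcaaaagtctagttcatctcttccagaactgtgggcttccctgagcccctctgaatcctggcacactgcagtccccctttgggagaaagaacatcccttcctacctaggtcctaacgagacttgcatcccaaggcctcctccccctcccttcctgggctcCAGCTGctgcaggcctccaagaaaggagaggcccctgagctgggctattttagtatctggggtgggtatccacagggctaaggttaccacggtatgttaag
Acta1: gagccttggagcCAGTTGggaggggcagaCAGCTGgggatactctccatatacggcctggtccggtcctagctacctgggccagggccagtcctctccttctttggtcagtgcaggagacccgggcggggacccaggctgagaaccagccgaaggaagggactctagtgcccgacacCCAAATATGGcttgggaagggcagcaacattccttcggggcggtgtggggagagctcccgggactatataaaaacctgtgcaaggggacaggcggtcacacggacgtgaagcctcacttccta
Tnni1: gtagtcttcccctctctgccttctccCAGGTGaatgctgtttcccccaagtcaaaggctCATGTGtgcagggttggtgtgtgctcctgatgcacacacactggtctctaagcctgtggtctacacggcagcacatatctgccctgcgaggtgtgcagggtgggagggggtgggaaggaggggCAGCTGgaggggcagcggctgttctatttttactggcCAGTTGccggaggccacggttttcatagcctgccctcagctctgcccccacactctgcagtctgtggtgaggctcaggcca
Mef2c: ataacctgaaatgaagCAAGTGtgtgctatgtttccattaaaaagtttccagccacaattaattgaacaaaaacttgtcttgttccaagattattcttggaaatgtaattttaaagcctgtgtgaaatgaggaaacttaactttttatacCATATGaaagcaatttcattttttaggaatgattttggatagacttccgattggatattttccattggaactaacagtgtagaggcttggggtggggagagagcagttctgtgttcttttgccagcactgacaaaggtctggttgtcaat
CAGCTG occurs 2 times in the Chrna1 window and 1 time each in those of Mylpf, Acta1 and Tnni1, and 0 times in the Mef2c window. The Acta1 window also holds 1 CArG box. The promoter table held 24 of the 31 genes, read at the first start listed. Of these, 8 held CAGCTG (33.3%, against 16.1% of all 27025 promoters), 20 held any E-box, of which CAGCTG is one form (83.3% against 72.1%), 3 held a CArG box (12.5% against 1.57%) and 4 a MEF2 site (16.7% against 1.89%). The windows of Myog, Myh3, Myh8, Actc1, Tnnc1, Tnnc2 and Tnnt1 held other E-boxes without it, and that of Ckm, which hardly varied, held it. Both strands were searched, and these shares describe letters in a window, not binding.

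The median difference of the list depended on single cultures. It was -0.08 without Delta9 replicate 2, -0.13 without WT replicate 2, -0.49 without Delta9 replicate 1 and -0.55 without WT replicate 1. In the 4 arrays of higher spike-in signal the median was -0.59, with 0 of 31 past the adjusted threshold, beside 0.335% of all genes (3 of 31 at an unadjusted p under 0.05, beside 16.0% of all genes), and in the remaining pair of arrays it was 0.09 with 13 of 31 genes lower in Delta9. Array weights gave a stronger contrast, with a median of -0.77 and 16 of 31 genes at an unadjusted p under 0.05, beside 20.0% of all genes. Myh2 then passed the adjusted threshold (difference -0.77, adjusted p 0.0378), beside 0.764% of all genes. The weights were 3.33 for WT replicate 2 and 1.70 for Delta9 replicate 2, the samples at either end of the muscle order, and 0.38 to 1.25 for the other 4.

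Muscle genes outside the 31 shared the extreme samples in part. Of 99 measured genes in 5 further lists, 78 had lower and 21 higher values in Delta9 (53.2% of all genes were lower), with a median of -0.16. None passed the adjusted threshold, 11 were lower at an unadjusted p under 0.05 (6.06% of all genes) and 1 was higher (4.54%). WT replicate 2, highest for 12.2% of all genes, was so for 21 of the 35 sarcomere and Z-disc genes, 10 of the 19 calcium-handling genes and 8 of the 15 metabolic genes. It was highest for 2 of the 13 further regulators and 3 of the 17 genes of fusion, the synapse and the dystrophin complex. Delta9 replicate 2, lowest for 15.7% of all genes, was so for 17 of the 35 sarcomere and Z-disc genes, and both held for 11 of them (2.51% of all genes).

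Named examples differed in their sample order. Myom2, the M-band protein myomesin 2, was 6.22, 4.58 and 6.07 in Delta9, against 5.80, 7.02 and 6.08 in WT. Sln, sarcolipin, the inhibitor of the calcium pump SERCA, was 6.97, 4.82 and 7.01 in Delta9, against 6.74, 7.96 and 6.20 in WT, and Atp2a1, the fast-fibre SERCA pump itself, was 5.46, 4.69 and 5.02 against 5.13, 6.39 and 5.12 in WT. These genes tracked the troponins, with Delta9 replicate 2 lowest. Mymx, the fusion micropeptide myomixer, was 6.03, 3.91 and 5.48 in Delta9, against 5.62, 5.43 and 4.37 in WT (difference -0.00098, SE 0.57). Delta9 replicate 2 was again its lowest sample, but WT replicate 2 was not its highest. Other wide-ranging genes were lowest in Delta9 replicate 3 instead. Tpm2, a tropomyosin, was 11.01, 11.02 and 9.20 in Delta9, against 10.80, 11.05 and 11.41 in WT. Dmd, dystrophin, was 5.70, 5.73 and 3.83 in Delta9, against 5.37, 5.45 and 6.16 in WT. Megf10 was 6.39, 6.53 and 4.49 in Delta9, against 5.84, 6.22 and 6.02 in WT.

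The genes of lowest p in these lists are given as examples, and their groups are apart because low p chose them. Cacna2d1, a calcium channel subunit also made outside muscle, was 6.09, 6.07 and 5.44 in Delta9, against 6.54, 6.63 and 7.08 in WT (difference -0.88, SE 0.24, adjusted p 0.291). Fhl1, a LIM protein of muscle and fibroblasts, differed by -0.82 (SE 0.22, adjusted p 0.294), and Cox6a2, a heart and muscle form of a cytochrome oxidase subunit, by -0.73 (SE 0.21, adjusted p 0.315). Rapsn, which anchors acetylcholine receptors at the synapse, was the 1 gene of higher level at an unadjusted p under 0.05, with 5.27, 5.11 and 5.93 in Delta9, against 4.90, 4.44 and 3.89 in WT (difference 1.03, SE 0.31, adjusted p 0.338). Its lowest sample, WT replicate 3, was the lowest for macrophage markers as well; their part was not tested.

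Inhibitors of MyoD activity included the 1 gene of these lists that passed the test. Id proteins bind the E-protein partners of MyoD and keep it off DNA. Id3 was 9.21, 9.30 and 8.90 in Delta9, against 10.40, 10.35 and 10.55 in WT, and fell past the threshold (difference -1.30, SE 0.14, adjusted p 0.0487). With single samples left out, the difference of Id3 had an adjusted p from 0.0204, when Delta9 replicate 3 was dropped, up to 0.257, when WT replicate 3 was, and the call was lost under 12 alternatives. Id1 was 6.73, 6.40 and 6.38 in Delta9, against 7.78, 7.08 and 7.41 in WT, and Id4 was 5.98, 6.03 and 6.84 against 8.08, 7.14 and 7.90 in WT; both had an adjusted p of 0.231. Id2 had overlapping groups (difference 0.39, SE 0.54). Of 16 measured genes listed as inhibitors, 12 had lower values in Delta9 (53.2% of all genes), with a median of -0.41. At an unadjusted p under 0.05 there were 5 of them (6.06% of all genes). The list also held Fst, follistatin, which is not an inhibitor of MyoD. It was among the 12 but not the 5 (difference -0.60, SE 0.27, unadjusted p 0.0596). Of 9 partners and cofactors, such as Tcf12 and Ep300, 8 had lower values, 0 at an unadjusted p under 0.05, with a median of -0.14. The lists were not tested against each other.

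Smooth muscle markers had another sample order, and cardiac markers were dim. For 10 smooth muscle and myofibroblast markers, such as Acta2 and Tagln and with Des among them, the median deviation was 0.27, 0.10 and -0.76 in Delta9, against -0.01, 0.22 and 0.51 in WT, so Delta9 replicate 3 was lowest. For the 31 muscle genes it was 0.21, -0.68 and -0.03 in Delta9, against -0.09, 0.70 and -0.04 in WT. None of the 10 cardiac markers, among them Myh6, Nppa and Myl7, had a mean above the median gene (2.22 to 4.10), and 1 of them ranged over 1 log2. The 3' minus 5' signal of Gapdh, which is higher where RNA is less intact, was 0.25, 0.23 and 0.57 in Delta9, against 0.57, 0.49 and 0.51 in WT. That of actin was 0.68, 0.51 and 0.84 in Delta9, against 0.86, 0.82 and 1.41 in WT. Delta9 replicate 2, lowest for most of the muscle genes, had the lowest value on both measures, the side of more intact RNA. The part of RNA integrity in the muscle values was not tested.

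The comparison was also made with the level of further sarcomere genes as a covariate. The covariate was the median deviation of the 35 further sarcomere and Z-disc genes, none of them a member: 0.13, -0.32 and -0.10 in Delta9, against -0.18, 0.32 and 0.12 in WT. This alternative was chosen after seeing the data. Of the 35 genes, 30 were lower in Delta9, beside 53.2% of all genes, and 12 had a mean above the median gene. Their sample order was mixed. Delta9 replicate 2 was lowest for 17 of the 35, beside 15.7% of all genes. Fhl1, Nexn, Tpm1 and Tpm2 were instead lowest in Delta9 replicate 3 and highest in WT replicate 3. The list is of the same kind as the members' sarcomere genes. Smaller or upward-moved differences with this covariate are therefore in part built in. The median difference over the 31 genes was then -0.06, and 0 of 31 passed the adjusted threshold, beside 0.0110% of all genes (3 of 31 at an unadjusted p under 0.05, beside 7.44% of all genes). Myog differed by 0.90 (SE 0.31, unadjusted p 0.0264, adjusted p 0.626) and Des by 0.51 (SE 0.20, unadjusted p 0.0456, adjusted p 0.662), both higher in Delta9. Myh2 differed by -0.53 (SE 0.19, unadjusted p 0.0318, adjusted p 0.635), and Myh1 by -0.75 (SE 0.43, adjusted p 0.732). The Acta1 difference moved to 0.48 (SE 0.26) and that of Tnni1 to 0.44 (SE 0.22), both short of the threshold.

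**Figure D5:**
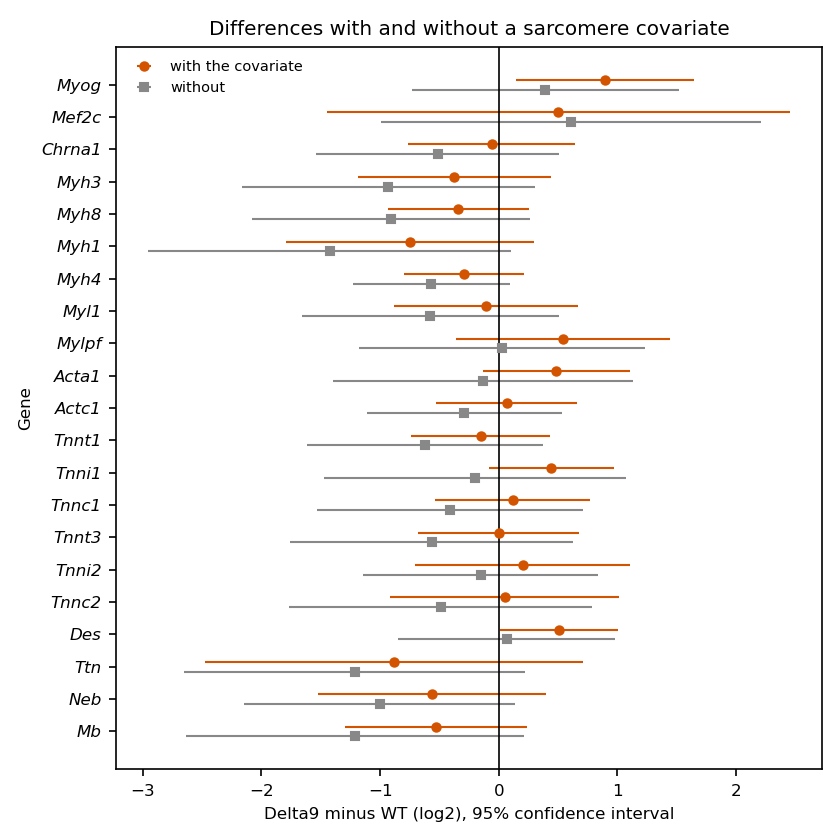
Delta9 minus WT (log2, 95% confidence interval) for the 21 genes with a range of at least 1, with the sarcomere covariate (circles, upper of each pair) and without it (squares). With the covariate the intervals are narrower for all 6 troponins and wider for Mef2c and Ttn. Those of Myog (0.15 to 1.65) and Des (0.014 to 1.00) alone exclude 0 before adjustment.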

How the data were processed

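Trizol-extracted RNA was biotin-labelled in 1 cycle and hybridised to Affymetrix arrays, 1 per sample, per the labels' protocols. The deposited log2 values of the authors are probe set summaries on a near-common scale; the base was inferred from their range, and for the summarisation and normalization a method is not given in the sources used here. Of 45101 probe sets, 64 controls were left out and 34945 had 1 gene symbol in the platform annotation.

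Delta9 minus WT was fitted for 18193 genes with limma 3.58.1 (R 4.3.3; lmFit, eBayes with a mean trend), with Benjamini-Hochberg adjustment over all genes at 0.05, no pseudocount and no filter. The fit was tested on simulated data. The 31 members and all lists were chosen with earlier results of these data known. Values per sample were given for members of mean above the median gene, with a range of at least 1 log2 or an unadjusted p under 0.05; of other lists, the genes of lowest p and widest range were named, and other names were chosen after their values were seen. Same-numbered replicates did not pair: their deviations correlated at -0.40, 0.17 and -0.43. No 2 arrays were duplicates. Promoters and neighbouring genes came from RefSeq tables of GRCm38.p6. Figures were drawn with matplotlib 3.10.9. The alternatives tried are given in the closing section. Precision is limited by having 3 arrays per group.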

Additional observations from a re-analysis of the deposited data

How the results depend on the processing

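With 3 arrays per group and no detection calls, whether dim genes such as Myh2 and Pax7 were above background is not known, and their differences carry that limit. Of 21 other probe sets of the members, 15 had the sign of the one used and 6 the opposite sign. The 4 of them above the median gene all had the same sign. The count of members past the adjusted threshold was 0 under every alternative except array weights (1). The count at an unadjusted p under 0.05, 2 in the main comparison, was 1 after quantile normalization, 0 among genes above the 40th percentile, 1 without a variance trend, 16 with array weights, 4 with the spike-in split as a block, and 1 to 6 with single samples left out. Of all genes, 10.6% passed this cut in the main comparison and 20.0% with array weights. Shares for the other settings listed are not given, so those counts do not set the members apart from all genes. The median of -0.30 ran from -0.55 to -0.08 with single samples left out and was -0.77 with array weights. Non-overlapping members numbered 4, all lower in Delta9, beside 9.99% of all genes in that direction. Above the 40th percentile there was 1, where fewer members were tested and the share of all genes is not given. The number of all genes called was 11, against 139 with array weights, 0 with the replicate block, 149 with the spike-in block, 48 at a threshold of 0.10, 61 in the 4 arrays with more spike-in signal, 2 with either covariate, and 1 to 81 with single samples left out. With the replicate number as a block, 0 members passed and 2 had an unadjusted p under 0.05, a cut for which the share of all genes is not given. The replicate numbers did not pair the samples, so the block adds no pairing. It ended the call of Id3 (adjusted p 0.305), one of 12 alternatives that did.

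Of 1136 values of 64 named genes under alternatives, 62 had the opposite sign. With array weights these were Pax3 (0.014), Myf5 (-0.039), Myog (-0.044), Mef2c (-0.040), Mylpf (-0.67), Des (-0.38) and Megf10 (0.10). With the macrophage covariate they were Mef2c (-0.93), Mylpf (-0.26), Megf10 (0.15), Agrn (0.067), Dmd (0.17) and Id2 (-0.63). With the sarcomere covariate they were Acta1 (0.48), Actc1 (0.066), Tnni1 (0.44), Tnnc1 (0.12), Tnni2 (0.20), Tnnc2 (0.049), Mymx (0.31) and Eno3 (0.26). Within the 4 arrays they were Myf5 (-0.0071), Mylpf (-0.40), Des (-0.16), Megf10 (0.34) and Mymx (0.071). In addition, the difference of Des was -0.092 with the mean of its probe sets, and the difference of Mylpf was -0.0043 after quantile normalization. With single samples left out, signs turned within these ranges: Myf5 -0.048 to 0.086, Myog -0.10 to 0.75, Mylpf -0.29 to 0.61, Des -0.27 to 0.42, Acta1 -0.57 to 0.38, Actc1 -0.49 to 0.058, Tnni1 -0.65 to 0.29, Tnnc1 -0.84 to 0.052, Tnni2 -0.44 to 0.26, Tnnc2 -0.84 to 0.10, Mef2c -0.20 to 1.10, Mymx -0.45 to 0.61, Sln -1.08 to 0.029, Eno3 -0.65 to 0.076, Megf10 -0.59 to 0.43, Dmd -0.89 to 0.059, Ep300 -0.41 to 0.33 and Id2 -0.088 to 0.82. The difference of Myf6 ran from -0.19 to 0.0040. The cause was not tested.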
